A study of Mus musculus with 14 samples.

Results

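The nuclear genes of respiratory chain complexes I to IV were followed in 3 cell populations sorted from mouse lung. Genes were taken by their symbol in the array annotation, namely every Nduf gene except Ndufa4l2, the Sdh subunit genes, every Uqcr gene, Cyc1, Cox4i1 and the gene families Cox5, Cox6, Cox7 and Cox8. The array carried 106 probes for 71 such genes, and 90 probes for 65 genes had a detection p under 0.05 on at least 2 of the 14 arrays, out of 24445 probes and 12444 genes kept in all. Complex I was represented by 41 genes, complex II by 3, complex III by 7 and complex IV by 14. The other 6 genes (Cox7b2, Cox8c, Ndufaf6, Ndufs1, Sdha and Uqcrfs1) did not pass this filter, so that the largest iron-sulfur subunit of complex I, the flavoprotein of complex II and the Rieske protein of complex III have no value here. For 64 of the 65 genes the probe used was detected on all 14 arrays, and Cox8b was the exception.

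Cells came from triple transgenic Foxd1-Cre;Rosa26-tdTomato;Coll-GFP reporter mice, in which Cre driven by Foxd1 leaves tdTomato on in all descendants of cells that once expressed it, and GFP reports collagen expression. Peri cells carried tdTomato without GFP, PeriFibro cells carried both reporters, and Fibro cells carried GFP without tdTomato, so the populations are sort gates and not single cell types. Lungs were taken at day 7 after bleomycin at 0.8 U/kg into the trachea (2 Peri, 3 PeriFibro and 3 Fibro arrays) or from uninjured mice given saline (2 arrays of each population). All bleomycin arrays are labelled male and all uninjured arrays female, so injury and sex cannot be told apart. Whether arrays of 1 group came from separate mice is not in the labels. The p-values here thus rest on the spread between these arrays alone, which may be technical.

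Complex I oxidises NADH, complex II oxidises succinate, and both pass electrons through ubiquinone to complex III, from where cytochrome c carries them to complex IV, which reduces oxygen. Complexes I, III and IV pump protons as they do so, and the gradient drives ATP synthase. Most subunits are encoded in the nucleus and imported, and complex IV has tissue isoforms: Cox6a2, Cox7a1 and Cox8b are the forms of heart and skeletal muscle, and Cox6b2 is known from testis.

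Many promoters of nuclear respiratory genes are bound by NRF1 and by the ETS-family factor GABPA, and the sequences below show how far such letters are shared by the genes described here. RefSeq promoter windows (GRCm38.p6, 250 bases before to 50 after each start) were matched for 55 of the 65 genes. On either strand, GCGCATGC, the core of the NRF1 motif, occurred in 15.8% of their 57 windows and in 2.71% of all 32851 windows, and CCGGAAG, an ETS core, in 21.1% and 8.86%. Of the 55 genes, 18 held at least 1 of these, with examples in all 4 complexes. A match is a description of the letters and not a binding site. Capitals mark the match in these 30-base stretches, which were picked as examples. The last 3, from tissue isoforms of complex IV, held no match to either core before the start. The ubiquitous Cox7a2 and the complex I gene Ndufa5, not shown, held none either, so a missing match does not set the tissue isoforms apart.
Ndufa8 (complex I, chr2:36049339-36049368, minus strand): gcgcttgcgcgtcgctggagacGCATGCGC
Sdhb (complex II, chr4:140961206-140961235, plus strand): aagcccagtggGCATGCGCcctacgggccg
Sdhd (complex II, chr9:50603877-50603906, minus strand): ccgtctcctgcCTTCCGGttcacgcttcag
Uqcr11 (complex III, chr10:80406869-80406898, minus strand): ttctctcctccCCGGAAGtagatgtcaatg
Cox6b1 (complex IV, chr7:30626124-30626153, minus strand): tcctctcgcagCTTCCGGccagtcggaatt
Cox7a1 (complex IV, chr7:30184141-30184170, plus strand): agtgggcgtggcttgggattcccttagggt
Cox8b (complex IV, chr7:140900447-140900476, minus strand): gtgacaggagacagctgcagctctccaccc
Cox6b2 (complex IV, chr7:4753095-4753124, minus strand): cccgcattacagacagctcctattggctgg

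Values are log2 intensities after background correction and quantile normalisation, and a gene was called where its adjusted p was below 0.05 and it differed at least 2-fold (limma, Benjamini-Hochberg over 12444 genes). Between 39.38% and 44.36% of probes were detected per array. The sort labels were set against marker lists: the median log2 deviation of 10 leukocyte genes from their means over all arrays was 1.23 to 1.52 on the Peri arrays, against -2.05 to -0.92 on PeriFibro and -0.25 to 0.85 on Fibro arrays. For 10 pericyte genes it was -1.0 to -0.33 on Peri, against 0.11 to 1.41 on PeriFibro and -0.31 to 0.11 on Fibro arrays, with the Peri arrays lowest although the sort was named for these cells. For 11 endothelial genes it was -3.32 to -1.27 on Peri, against 0.88 to 1.75 on PeriFibro and -0.13 to 1.07 on Fibro arrays. For 10 fibroblast genes it was -1.36 to 0.48 on Peri, against -0.10 to 1.26 on PeriFibro and -0.43 to 0.79 on Fibro arrays. For 8 alveolar epithelial genes it was -1.52 and -1.84 on Peri, 0.07 and -1.39 on PeriFibro and 3.66 and 3.47 on Fibro arrays of uninjured mice. All 8 were lower in uninjured Peri than Fibro cells (median difference -5.49) and in uninjured PeriFibro than Fibro cells (-4.61). Of 11 macrophage genes 7 were lower and 1 higher in uninjured Peri than Fibro cells (median difference -2.72), and after bleomycin 5 were lower (-1.44). Neutrophil, T and NK cell and B cell genes had medians of 1.54 to 3.36 on the Peri arrays and -2.91 to 1.66 on all others. Whether these shifts have a part in the differences given below was not tested, and in bulk samples fewer cells of a type and less RNA per cell cannot be told apart.

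The respiratory chain genes stood high together on 3 single arrays, each from another group. On Fibro uninjured replicate 2 the median of the 65 genes lay 0.82 above their own means over 14 arrays, on Fibro bleomycin replicate 2 it lay 0.79 above, and on PeriFibro bleomycin replicate 3 it lay 0.60 above. The other 11 arrays lay between -0.55 (Peri bleomycin replicate 1) and 0.15 (Fibro bleomycin replicate 3). Within their groups these 3 arrays held the highest value of 63, 59 and 62 of the 65 genes, against 45.5%, 37.6% and 40.4% of all 12444 genes. The shift was seen in every complex: on Fibro uninjured replicate 2 the medians were 0.81 for complex I, 0.61 for complex II, 0.86 for complex III and 0.70 for the 9 ubiquitous subunits of complex IV. They also stood apart over all genes: replicate pairs that hold 1 of them correlated at 0.9234 to 0.9466, and the other pairs at 0.9728 to 0.9844. The 3 arrays are named here because of this shift, so their height is no test, and each comparison is given below with and without them.

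**Figure D1:**
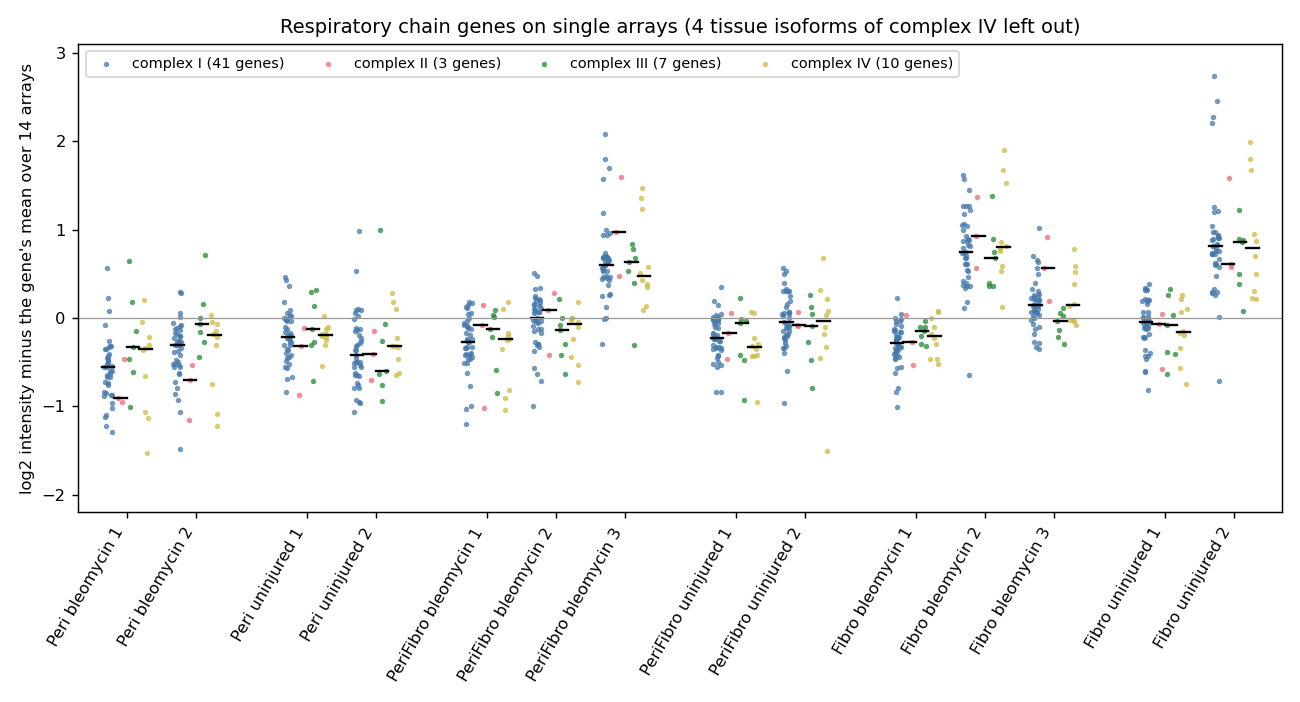
Deviation of each gene's log2 intensity from its mean over 14 arrays (vertical axis, log2 units) for single arrays (horizontal axis, by population, bleomycin left of uninjured). Points are genes coloured by complex, bars are medians per complex, and the 4 tissue isoforms of complex IV are left out. PeriFibro bleomycin 3, Fibro bleomycin 2 and Fibro uninjured 2 stand above the rest in all 4 complexes.

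Single genes differed widely in how far they moved. From the lowest to the highest array the 65 genes spanned 0.56 to 5.74 log2 units, with a median of 1.63. Cox6a1, the ubiquitous form of a complex IV subunit, spanned 0.56 units and its muscle counterpart Cox6a2 5.74 units. In complex I, Ndufb9, a membrane arm subunit, spanned 4.22 units and Ndufa13, another membrane arm subunit, 0.79 units. The narrow ranges were on brighter probes: means were 12.69 for Cox6a1 and 12.94 for Ndufa13, against 8.22 for Cox6a2 and 7.4 for Ndufb9. Whether brightness bears on the ranges was not tested. The lowest value of a gene fell on a Peri array for 48 of the 65 genes, a share that was not computed over all genes. The highest fell on Fibro uninjured replicate 2 for 29, on Fibro bleomycin replicate 2 for 24 and on PeriFibro bleomycin replicate 3 for 10.

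The exceptions were Ndufa10 and Ndufb11, both membrane arm subunits of complex I. Ndufa10 measured 10.15 on Fibro uninjured replicate 2 and 10.23 on Fibro bleomycin replicate 2, its 2 lowest values, and 10.85 to 11.17 on the other 12 arrays. It thus ran opposite to the other genes of its complex. Ndufb11 was highest on Peri uninjured replicate 2, at 6.90, and measured 5.11 to 6.73 elsewhere.

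The tissue isoforms of cytochrome c oxidase showed the largest differences between populations. All 4 were lower in Peri than in Fibro cells of uninjured mice, and Cox6a2 was also lower in PeriFibro than in Fibro cells. Cox7a1 measured 6.25 and 5.06 on Peri, 6.81 and 6.51 on PeriFibro and 7.64 and 10.40 on Fibro arrays of uninjured mice. The Fibro arrays lay above all others of this condition but also lay far from each other. Peri minus Fibro was -3.37 ± 1.00 (SE; 10.3-fold lower, adjusted p = 0.037, limma).

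Cox8b measured 4.52 and 4.41 on Peri, 6.33 and 5.90 on PeriFibro and 6.43 and 9.21 on Fibro arrays of uninjured mice. It was not well above background on either Peri array, so the difference from Fibro cells is a bound, at least 8.21-fold lower (adjusted p = 0.021, limma), measured from the array background. After bleomycin it was detected on 1 of 2 Peri arrays (4.40 and 5.49), against 6.21, 5.50 and 7.68 in PeriFibro and 5.64, 7.67 and 7.32 in Fibro cells.

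Cox6a2 followed another order, with PeriFibro lowest in uninjured mice. It measured 8.66 and 6.63 on Peri, 6.46 and 5.51 on PeriFibro and 9.58 and 11.25 on Fibro arrays. PeriFibro minus Fibro was -4.43 ± 0.85 (21.6-fold lower, adjusted p = 0.02, limma) and Peri minus Fibro -2.77 ± 0.85 (6.81-fold lower, adjusted p = 0.034). Peri minus PeriFibro was 1.66 ± 0.85 and not called (adjusted p = 0.18, limma).

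Cox6b2, the form known from testis, measured 5.59 and 5.60 on Peri, 5.33 and 6.19 on PeriFibro and 7.09 and 8.21 on Fibro arrays of uninjured mice. Peri minus Fibro was -2.06 ± 0.67 (4.17-fold lower, adjusted p = 0.045, limma). At day 7 after bleomycin none of the 4 isoforms was called in a comparison of populations. Cox7a1 then measured 5.74 and 6.7 on Peri, 6.58, 6.64 and 8.64 on PeriFibro and 7.07, 10 and 8.13 on Fibro arrays, with Peri below every Fibro array and overlapping PeriFibro.

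Cox6a1, Cox6b1 and Cox7a2, the ubiquitous counterparts of Cox6a2, Cox6b2 and Cox7a1, were not called between any populations, and that of Cox8b was not analysed here. Cox6a1 averaged 12.46 ± 0.142 on Peri, 12.76 ± 0.0135 on PeriFibro and 12.91 ± 0.00723 on Fibro arrays of uninjured mice (SD, n = 2 each), a Peri minus Fibro difference of -0.45 ± 0.21 (SE, adjusted p = 0.15, limma). Cox6b1 averaged 12.7 ± 0.264 on Peri, 12.99 ± 0.243 on PeriFibro and 13.41 ± 0.0313 on Fibro arrays, a difference of -0.71 ± 0.31 (SE, adjusted p = 0.13, limma). Cox7a2 differed by -1.23 ± 0.85 between the same groups (adjusted p = 0.33, limma). Levels of 2 genes were not set against each other, since each probe has its own response.

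Cardiac muscle genes, like the tissue isoforms, were highest on Fibro uninjured replicate 2, and the medians of the 2 sets shared a sign on all but 2 arrays. Of 12 listed cardiac genes 9 were measured, and their median deviation was -1.57 to -0.77 on the Peri uninjured arrays, 0.35 on Fibro uninjured replicate 1 and 2.58 on Fibro uninjured replicate 2. Myl7, an atrial myosin light chain, measured 4.42 and 4.27 on Peri, 6.18 and 4.99 on PeriFibro and 7.04 and 10.49 on Fibro arrays of uninjured mice. Only 1 of the 9 genes was detected on every Peri array of a condition, against 8 in Fibro uninjured cells. On Fibro bleomycin replicate 3 the cardiac genes lay 1.53 and the 4 isoforms 0.98 above their means, while complex I lay 0.15 above. The medians of cardiac genes and isoforms differed in sign on PeriFibro bleomycin replicate 1, at 0.28 and -0.67, and on Fibro bleomycin replicate 1, at 0.08 and -0.39. Elsewhere they shared a sign, as on Peri bleomycin replicate 1 (-2.12 and -1.37) and Fibro bleomycin replicate 2 (0.97 and 1.51). The part of cardiac RNA in these differences was not tested.

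**Figure D2:**
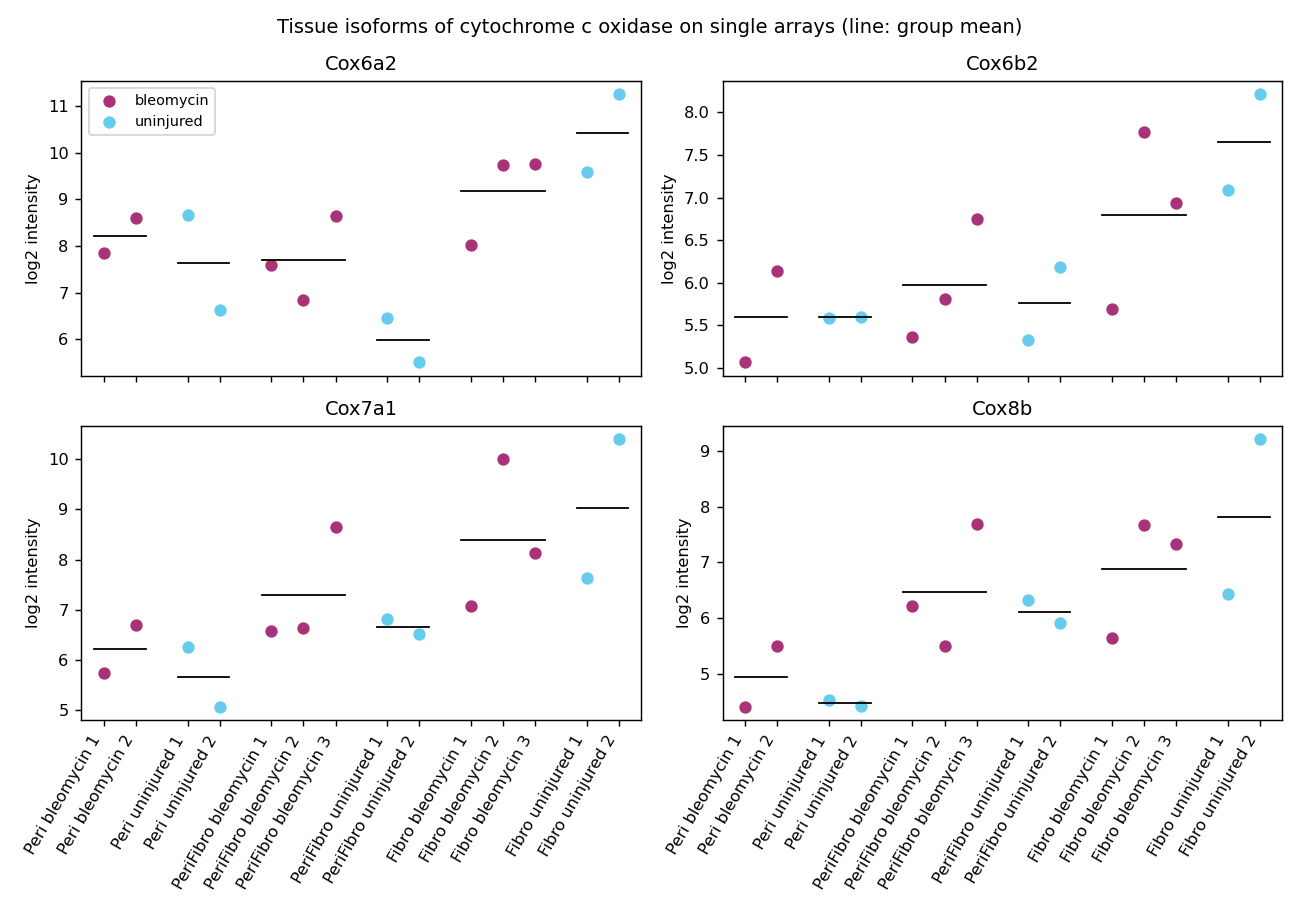
Log2 intensity (vertical axes) of Cox6a2, Cox6b2, Cox7a1 and Cox8b on single arrays, bleomycin left of uninjured within each population; lines are group means. Fibro uninjured 2 carries the highest value of each of the 4 genes, 8.21 to 11.25.

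Complex I was read through 9 genes of the NADH-oxidising N module, 5 of the quinone-reducing Q module, 19 of the membrane arm, 7 assembly factors and a probe annotated to the pseudogene Ndufs5-ps. Ndufa5, a Q module subunit, was lower in Peri than in Fibro cells of uninjured mice. It measured 10.62 and 10.17 on Peri, 11.11 and 11.38 on PeriFibro and 11.46 and 12.02 on Fibro arrays, with no overlap between Peri and either other group. Peri minus Fibro was -1.35 ± 0.38 (2.55-fold lower, adjusted p = 0.022, limma), and its other probe gave -1.42.

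Ndufaf2, an assembly factor that acts late in building complex I, was lower in Peri than in PeriFibro cells after bleomycin. It measured 6.98 and 7.34 on Peri, 8.10, 8.22 and 9.46 on PeriFibro and 8.02, 8.69 and 8.97 on Fibro arrays, with Peri below every other array. Peri minus PeriFibro was -1.43 ± 0.46 (2.69-fold lower, adjusted p = 0.043, limma) and Peri minus Fibro -1.39 ± 0.46 (adjusted p = 0.089).

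The Ndufs5-ps probe measured 9.31 and 9.56 on Peri, 10.31, 10.69 and 10.73 on PeriFibro and 9.74, 10.73 and 10.25 on Fibro arrays after bleomycin. Peri minus PeriFibro was -1.14 ± 0.27 (2.20-fold lower, adjusted p = 0.01, limma), and in uninjured mice -0.88 ± 0.30 (1.84-fold lower, adjusted p = 0.049), short of the fold limit. The source of this signal is uncertain, because a pseudogene shares sequence with its parent gene Ndufs5, which has no probe of its own among the 65 genes.

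The measured core subunits of complex I were not called in any comparison. Ndufv1, which binds FMN, measured 11.03 and 10.69 on Peri, 11.36 and 11.38 on PeriFibro and 11.22 and 11.63 on Fibro arrays of uninjured mice, a Peri minus Fibro difference of -0.57 ± 0.25 (adjusted p = 0.12, limma). The same difference was -0.74 ± 0.42 for Ndufv2, -0.52 ± 0.44 for Ndufs3, -0.26 ± 0.28 for Ndufs7 and -0.33 ± 0.37 for Ndufs8. All 5 were below 0 and none had an adjusted p under 0.12. Ndufa8, a membrane arm subunit, passed the p threshold between Peri and PeriFibro cells after bleomycin at -0.94 ± 0.31 (1.92-fold lower, adjusted p = 0.048, limma) but not the fold limit.

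Complex II showed the lowest medians on the Peri bleomycin arrays, -0.91 and -0.71 over its 3 genes. Sdhc, a membrane anchor subunit, measured 9.66 and 10.04 on Peri, 10.72, 10.85 and 11.54 on PeriFibro and 10.30, 11.50 and 10.76 on Fibro arrays after bleomycin. Peri lay below every array of the other populations, and Peri minus PeriFibro was -1.19 ± 0.36 (2.28-fold lower, adjusted p = 0.031, limma). In uninjured mice the same difference was -0.85 ± 0.39 (adjusted p = 0.14, limma).

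Sdhb, the iron-sulfur subunit, measured 9.08 and 8.84 on Peri, 9.47, 9.64 and 10.02 on PeriFibro and 9.58, 10.12 and 10.11 on Fibro arrays after bleomycin. Peri minus Fibro was -0.98 ± 0.27 (1.97-fold lower, adjusted p = 0.044, limma), just short of the fold limit, and its other probes gave -0.82 and -0.13. Sdhd, the other membrane anchor, measured 5.93 and 5.72 on Peri, 5.85, 6.46 and 8.47 on PeriFibro and 6.34, 8.25 and 7.79 on Fibro arrays. Its Peri minus Fibro difference of -1.64 ± 0.79 was larger than that of Sdhb but was not called (adjusted p = 0.24, limma).

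In complex III, Uqcr11, a small subunit, was lower in Peri than in Fibro cells of uninjured mice. It measured 11.34 and 11.12 on Peri, 12.28 and 12.32 on PeriFibro and 12.38 and 12.95 on Fibro arrays, with no overlap between the 3 groups. Peri minus Fibro was -1.44 ± 0.40 (2.71-fold lower, adjusted p = 0.021, limma) and Peri minus PeriFibro -1.07 ± 0.40 (adjusted p = 0.069).

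Uqcrq, the subunit that binds ubiquinone beside cytochrome b, ran the other way. Its values come from a single probe, and its other probe was detected on 0 of the 14 arrays. It measured 8.45 and 8.52 on Peri, 6.96, 7.17 and 7.50 on PeriFibro and 7.70, 8.16 and 7.50 on Fibro arrays after bleomycin, with Peri above all others. Peri minus PeriFibro was 1.28 ± 0.45 after bleomycin (adjusted p = 0.064, limma) and 1.34 ± 0.50 in uninjured mice (adjusted p = 0.068), neither called. It was the highest log2 difference of the 65 genes in the first of these comparisons and the second highest, after Cox6a2, in the other. The cytochrome c1 gene Cyc1 and the core proteins Uqcrc1 and Uqcrc2 differed by -0.77 ± 0.54, -0.16 ± 0.27 and -0.38 ± 0.35 between Peri and Fibro cells of uninjured mice, none called.

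Among the 9 ubiquitous complex IV subunits none was called. Cox4i1, which regulates the enzyme's response to ATP, measured 12.99 and 12.87 on Peri, 12.96 and 13.09 on PeriFibro and 13.29 and 13.89 on Fibro arrays of uninjured mice, a Peri minus Fibro difference of -0.66 ± 0.33 (adjusted p = 0.18, limma). Cox5a and Cox5b gave -0.44 ± 0.31 and -0.27 ± 0.27. Ndufa4, named for complex I but known as a complex IV subunit, gave -0.88 ± 0.41. Cox7a2 and Cox7b had the widest ranges among them, and after bleomycin Cox7a2 measured 6.35 and 6.80 on Peri, 6.98, 7.35 and 9.35 on PeriFibro and 7.59, 9.41 and 8.47 on Fibro arrays. Its Peri minus Fibro difference of -1.92 ± 0.77 was not called (adjusted p = 0.16, limma). Cox7a2l, which tethers complexes III and IV, measured 12.12 on Fibro uninjured replicate 2 and 12.11 on Fibro bleomycin replicate 2, and 8.93 to 10.95 on all others.

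Set side by side, the 3 pairs of populations in uninjured mice gave 0, 6 and 1 called genes of 65, all lower in the population named first. Between Peri and PeriFibro cells none was called, against 24.8% of all genes, and 4 had an unadjusted p under 0.05. Between Peri and Fibro cells 6 were lower (Cox6a2, Cox6b2, Cox7a1, Cox8b, Ndufa5 and Uqcr11), a share of 9.23%, against 21.7% of all genes called and 12.8% called lower. Between PeriFibro and Fibro cells 1 was lower (Cox6a2), against 2.35% of all genes called and 2.11% called lower. The called share of respiratory chain genes lay below that of all genes in both pairs with Peri cells and near it between PeriFibro and Fibro cells.

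After bleomycin the pairs gave 3, 0 and 0 called genes. Peri cells had lower Ndufaf2, Ndufs5-ps and Sdhc than PeriFibro cells, 4.62% of the 65, against 20.9% of all genes called and 11.2% called lower. Between Peri and Fibro cells none was called, against 7.53% of all genes, while 18 had an unadjusted p under 0.05. Between PeriFibro and Fibro cells none was called, against 6.09%, and none had an unadjusted p under 0.05.

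Most of the 65 genes lay below 0 between Peri and Fibro cells. The median log2 difference of the 65 genes between Peri and Fibro cells was -0.77 in uninjured mice and -0.64 after bleomycin, with 59 and 60 genes below 0, while the medians of all genes were -0.03 and -0.01. Between Peri and PeriFibro cells it was -0.16 in uninjured mice and -0.56 after bleomycin (all genes -0.05 and -0.02). Between PeriFibro and Fibro cells it was -0.52 and -0.10 (all genes 0.06 and 0.04), the last turning to 0.03 under median scaling (all genes 0.15). The uninjured value was -0.11 without Fibro uninjured replicate 2 and -0.94 without Fibro uninjured replicate 1. The direction after bleomycin rested on single arrays: it was 0.14 without Fibro bleomycin replicate 2 and 0.07 without PeriFibro bleomycin replicate 1, but -0.37 without PeriFibro bleomycin replicate 3 and -0.35 without Fibro bleomycin replicate 1. Between Peri and PeriFibro cells the uninjured value was -0.02 without PeriFibro uninjured replicate 2, and the bleomycin value -0.29 without PeriFibro bleomycin replicate 3. These pairs share arrays, so their medians are not independent of each other.

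The genes whose groups did not overlap were counted as well. In uninjured mice every Peri array lay below every PeriFibro array for 27 of 65 genes (37% of all genes) and below every Fibro array for 40 (31.5%), and PeriFibro lay below Fibro for 30 (20.9%). After bleomycin the counts were 31 for Peri below PeriFibro (27.5% of all genes), 36 for Peri below Fibro (21.2%) and 1 for PeriFibro below Fibro (9.58%). The last was Uqcrq, and only by a margin lost in rounding, since PeriFibro and Fibro bleomycin replicate 3 both read 7.50. In uninjured Peri against PeriFibro cells the share, 41.5%, was near that of all genes.

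The arrays that stand apart weigh on these values. Without Fibro uninjured replicate 2 none of the 6 genes lower in uninjured Peri than Fibro cells stayed called, Ndufb11 was called higher, and the median was -0.25 in place of -0.77. Cox7a1 was then -2.0 (adjusted p = 0.29, limma), Cox8b -1.99 (0.19), Ndufa5 -1.06 (0.15) and Uqcr11 -1.13 (0.15), all still below 0. The count was 13 without Fibro uninjured replicate 1, 11 without Fibro bleomycin replicate 2, 8 without PeriFibro bleomycin replicate 3, 4 without Fibro bleomycin replicate 3 or either uninjured PeriFibro array, 2 without Peri uninjured replicate 1 and 0 without Peri uninjured replicate 2. Cox6a2 between PeriFibro and Fibro cells was -3.60 without Fibro uninjured replicate 2 (adjusted p = 0.2, limma), -4.89 without PeriFibro uninjured replicate 1 (0.088) and -3.95 without PeriFibro uninjured replicate 2 (0.15), not called in these settings, and without Fibro uninjured replicate 1 Uqcrq was called lower as well. Between Peri and PeriFibro cells Uqcr11 was called lower without PeriFibro bleomycin replicate 3 or Fibro bleomycin replicate 2, and Uqcrq higher without either uninjured Fibro array, 1 gene in each setting. A group left with 1 array is assumed to vary like the others.

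After bleomycin, of the 3 genes lower in Peri than in PeriFibro cells only Ndufs5-ps stayed called without PeriFibro bleomycin replicate 3 or without Peri bleomycin replicate 2, none without Peri bleomycin replicate 1, and 5 were called without PeriFibro bleomycin replicate 1. Sdhc was then -0.92 without PeriFibro bleomycin replicate 3 (adjusted p = 0.098, limma) and Ndufaf2 -0.99 (0.12). Ndufaf2 also missed the call without any 1 of the uninjured Peri or PeriFibro arrays, which left 2 genes. Between Peri and Fibro cells 4 genes were called lower without Fibro bleomycin replicate 1 and 1, Ndufaf2, without PeriFibro bleomycin replicate 3.

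With the 3 arrays left out together, the medians between Peri and Fibro cells were -0.24 in uninjured mice and -0.37 after bleomycin, those between Peri and PeriFibro cells -0.15 and -0.28, and those between PeriFibro and Fibro cells -0.10 in both conditions. In uninjured Peri against Fibro cells Cox7a1, Cox8b, Ndufa5 and Uqcr11 then lay lower and Ndufb11 and Uqcrq higher. Uqcrq also lay higher in Peri than in PeriFibro cells in both conditions in this setting. The uninjured Fibro group then rested on Fibro uninjured replicate 1 alone. Since the 3 arrays were picked for the height of these genes, values without them are no test either.

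**Figure D3:**
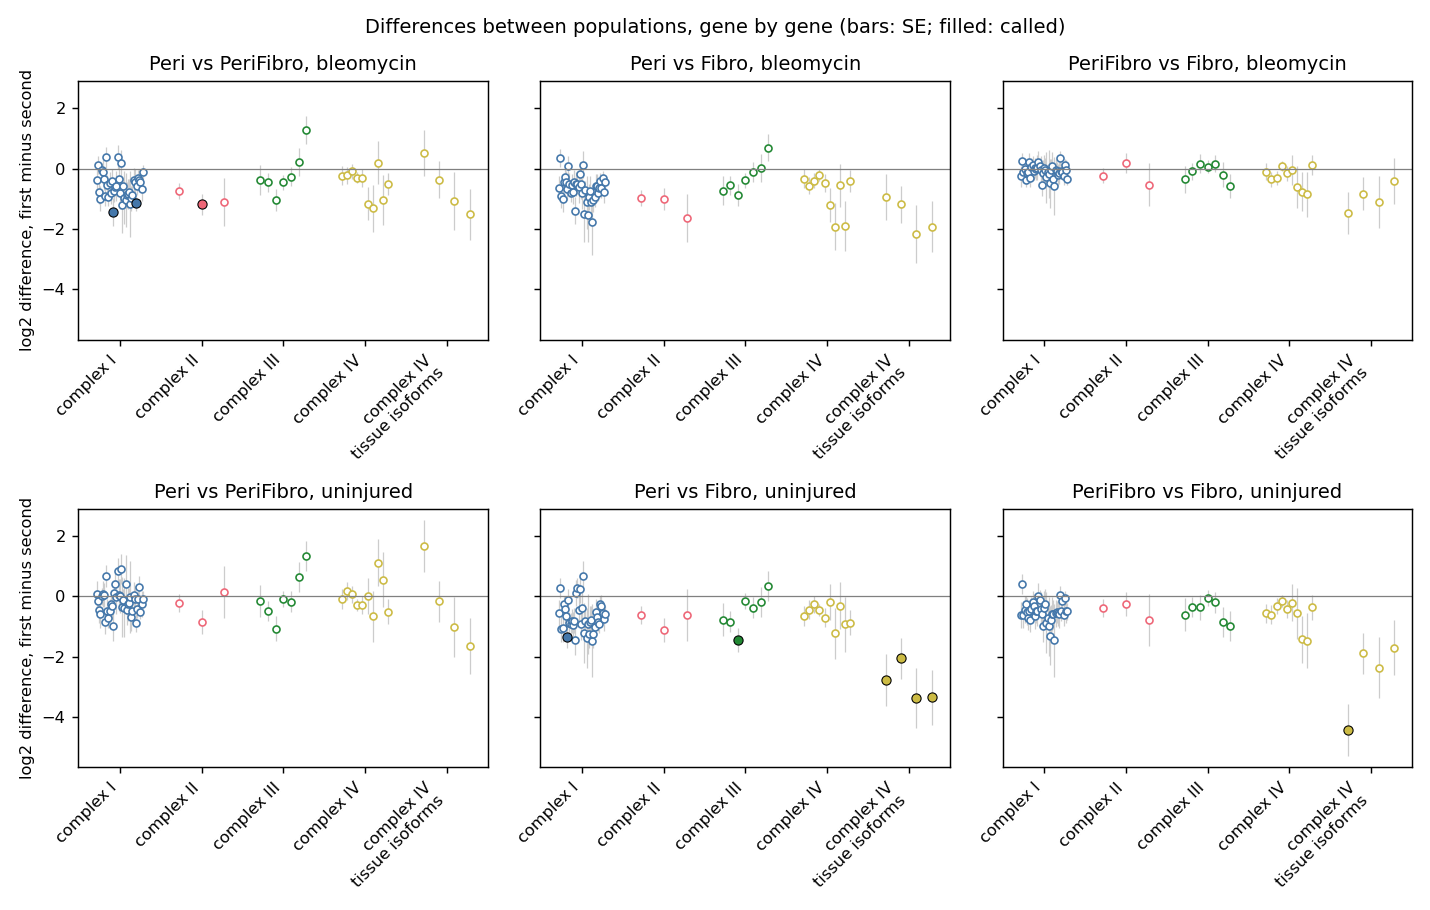
Log2 difference of each gene (vertical axis, first minus second population, bars SE) by complex for the 3 pairs of populations after bleomycin (top) and in uninjured mice (bottom); filled points were called. Most points lie below 0 between Peri and Fibro cells, and 4 of the 6 genes called there in uninjured mice are tissue isoforms of complex IV.

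The response to bleomycin was read within each population, day 7 after bleomycin against uninjured. No respiratory chain gene was called in Peri (0.595% of all genes), PeriFibro (0.129%) or Fibro cells (1.6%), and 0, 1 and 0 genes had an unadjusted p under 0.05. In Peri cells the median was -0.05, or 0.49 under median scaling (all genes 0.41), with 19 genes lower on every bleomycin array than on every uninjured array (19.2% of all genes). Cox7b differed most, with 4.82 and 4.73 after bleomycin against 5.73 and 6.12 in uninjured mice, -1.15 ± 0.91 (adjusted p = 0.97, limma). Ndufb5, a membrane arm subunit, gave -0.96 ± 0.99, and the highest were Cox6a2 at 0.57 ± 0.85 and Cox7a1 at 0.56 ± 1.00.

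In PeriFibro cells the median was 0.23, with 59 genes above 0 and 11 higher on every bleomycin array (11.6% of all genes). Without PeriFibro bleomycin replicate 3 the median was -0.02. Cox6a2 differed most, with 7.60, 6.85 and 8.65 after bleomycin against 6.46 and 5.51 in uninjured mice, 1.72 ± 0.77 (adjusted p = 0.75, limma). Cox7a2l gave 0.71 ± 0.72, and the lowest were Ndufs7 at -0.24 ± 0.25 and Cox7a2 at -0.15 ± 0.77.

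In Fibro cells the median was -0.17, or 0.03 under median scaling (all genes 0.11), with 2 genes lower on every bleomycin array (12.9% of all genes). Its direction rested on single arrays: it was 0.30 without Fibro uninjured replicate 2 and -0.46 without Fibro bleomycin replicate 2. Cox6a2 measured 8.02, 9.73 and 9.76 after bleomycin and 9.58 and 11.25 in uninjured Fibro cells, -1.25 ± 0.77 (adjusted p = 0.59, limma), and Cox8b gave -0.95 ± 0.84. The highest were Ndufaf4, an assembly factor, at 0.40 ± 0.31 and Cox5b at 0.33 ± 0.24.

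The difference of these responses between populations was tested as well, and no gene of the 65 was called. All genes called made up 0% for Peri minus PeriFibro, 0.482% for Peri minus Fibro and 0.129% for PeriFibro minus Fibro. At an unadjusted p under 0.05 the counts were 1, 0 and 1. The largest was Cox6a2 between the responses of PeriFibro and Fibro cells, 2.96 ± 1.10 (adjusted p = 1, limma).

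**Figure D4:**
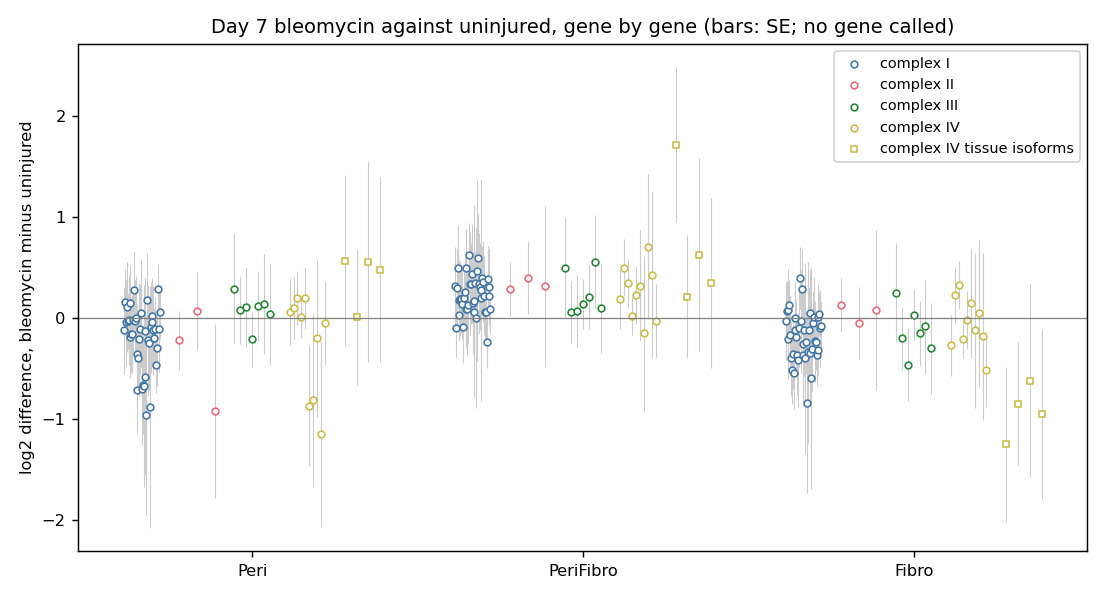
Log2 difference of each gene between day 7 after bleomycin and uninjured (vertical axis, bars SE) within Peri, PeriFibro and Fibro cells, by complex; squares are the tissue isoforms. No gene was called, and the tissue isoforms spread most, up to 1.72 for Cox6a2 in PeriFibro cells.

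Other genes of the mitochondrion were read from lists, to see how far they moved with complexes I to IV. On Fibro uninjured replicate 2 the median deviation was 0.68 for 17 ATP synthase genes, 0.64 for 72 mitochondrial ribosomal proteins and 0.57 for 26 assembly factors of complexes II to IV, against 0.82 for the respiratory chain. It was 0.47 for 22 genes of the outer membrane and import and 0.33 for 15 partners of cytochrome c and quinone. For 16 genes of the tricarboxylic acid cycle it was 0.03, and for 16 genes of mitochondrial DNA upkeep and biogenesis -0.24, while the median of all genes was -0.05. On Fibro bleomycin replicate 2 the medians were 0.72, 0.67 and 0.62 for the first 3 lists, 0.31 for outer membrane and import, 0.47 for the cytochrome c and quinone partners, -0.03 for the cycle and -0.33 for the upkeep genes. No gene encoded in mitochondrial DNA was measured.

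Between populations few of these genes were called. Of the 17 ATP synthase genes 1 was lower in Peri than in Fibro cells in both conditions, Atpif1, which encodes the inhibitor of the enzyme. Of all genes 12.8% were called lower in this pair in uninjured mice, and 7.53% were called in either direction after bleomycin. Atpif1 measured 11.96 and 11.63 on Peri, 12.60 and 12.90 on PeriFibro and 13.02 and 13.03 on Fibro arrays of uninjured mice, a Peri minus Fibro difference of -1.23 ± 0.31 (2.35-fold lower, adjusted p = 0.014, limma). Of the 72 mitochondrial ribosomal proteins 3 were lower in Peri than in Fibro cells of uninjured mice, against 12.8% of all genes. Set against PeriFibro cells after bleomycin, 8 were lower in Peri cells, Mrpl27 and Mrpl53 included, where 11.2% of all genes were called lower. The first count is a smaller share than that of all genes, and the second a share near it. None of the 26 assembly factors was called in any pair.

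Of the 16 upkeep and biogenesis genes 2 were called higher in uninjured Peri than PeriFibro cells (Polg2 and Ppargc1b, a coactivator). Against Fibro cells 2 were called higher (Polg2 and Gabpa). Of all 12444 genes, 1271 and 1105 were called higher in these pairs, a share near that of the list. In either direction 24.8% and 21.7% of all genes were called. Polg2, the accessory subunit of the mitochondrial DNA polymerase, measured 8.75 and 8.77 on Peri, 6.51 and 6.55 on PeriFibro and 6.86 and 6.92 on Fibro arrays of uninjured mice. Peri minus PeriFibro was 2.23 ± 0.31 (4.69-fold higher, adjusted p = 0.00021, limma) and Peri minus Fibro 1.87 ± 0.31 (3.65-fold higher, adjusted p = 0.0012). The median difference of the list was 0.42 and 0.57 in these pairs. Gabpa, whose product binds ETS sites, measured 6.0 on both Peri arrays and 4.82 and 4.79 on Fibro arrays of uninjured mice, 1.19 ± 0.37 (2.28-fold higher, adjusted p = 0.036, limma).

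Outside the chosen families, the lung-enriched isoform Cox4i2 was lower in Peri cells of uninjured mice. It measured 5.57 and 5.31 on Peri, 8.51 and 6.32 on PeriFibro and 7.15 and 7.95 on Fibro arrays of uninjured mice, with Peri minus PeriFibro at -1.97 ± 0.62 (3.93-fold lower, adjusted p = 0.033, limma) and Peri minus Fibro at -2.11 ± 0.62 (4.31-fold lower, adjusted p = 0.028). Its ubiquitous counterpart Cox4i1 differed by -0.10 ± 0.33 and -0.66 ± 0.33 in these pairs. Higd1b, which like Cox4i2 is a marker of pericytes, was lower as well, at -2.60 ± 0.76 and -3.12 ± 0.76. After bleomycin both were called lower in Peri than in PeriFibro cells, at -2.25 ± 0.56 for Cox4i2 and -2.23 ± 0.7 for Higd1b. Peri minus Fibro was then -1.08 ± 0.56 (adjusted p = 0.28, limma) and -0.98 ± 0.7 (adjusted p = 0.43), neither called. Ndufa4l2 was not analysed here.

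**Figure D5:**
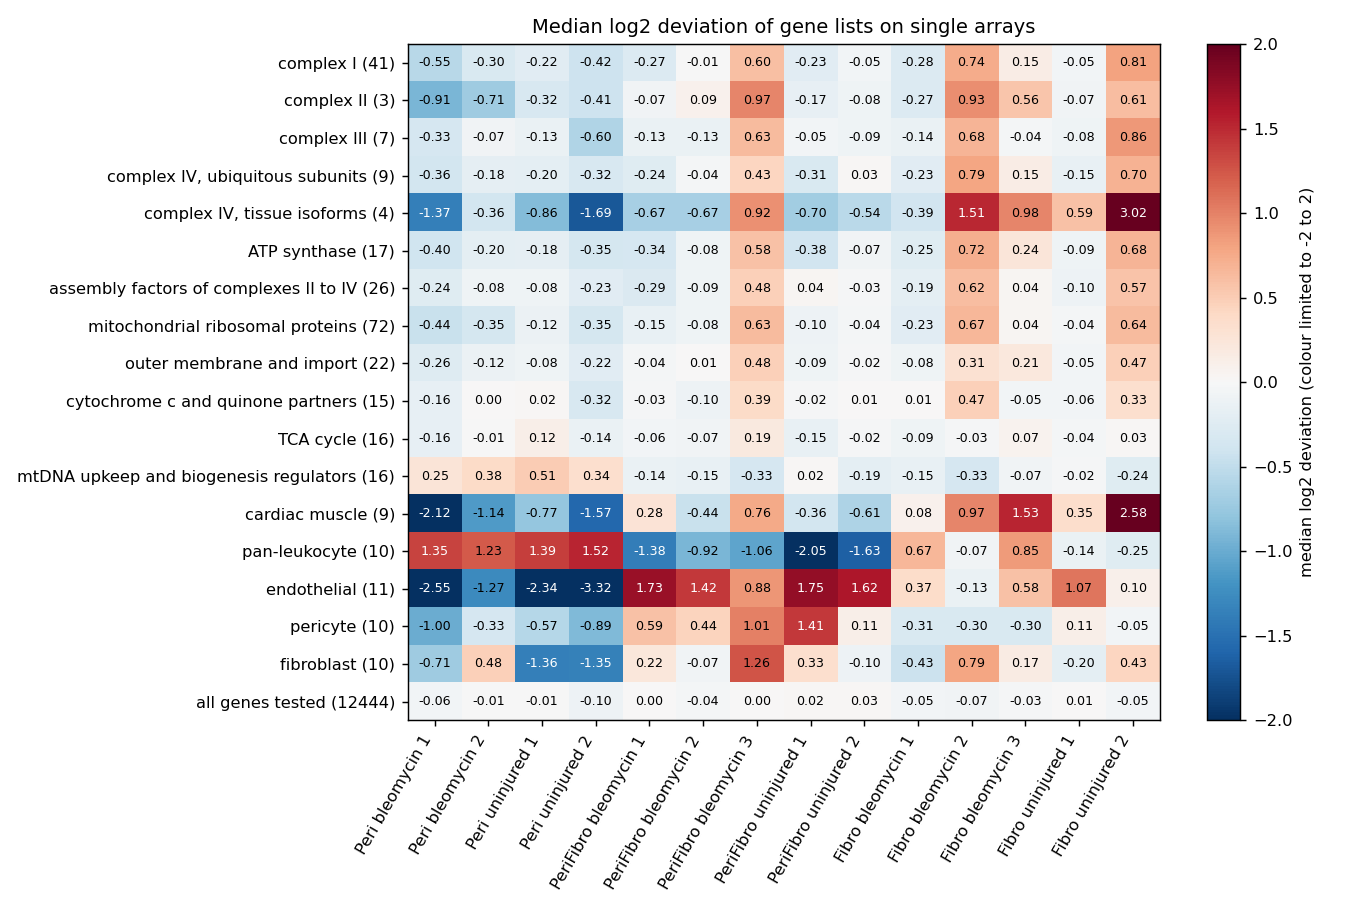
Median log2 deviation of each gene list (rows, number of genes in brackets) from its genes' means over 14 arrays, on single arrays (columns, bleomycin left of uninjured). Complexes I to IV, ATP synthase and mitochondrial ribosomal proteins are high together on 3 arrays, where the tricarboxylic acid cycle lies between -0.03 and 0.19, and cardiac muscle genes reach 2.58 on Fibro uninjured 2.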

How the data were processed

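RNA of sorted lung cells had been hybridised to 14 Illumina MouseWG-6 v2.0 arrays of 1 colour. The authors deposited non-normalised signal intensities with a detection p-value for each probe and array. They also deposited log2 values that, per the methods, were variance stabilised and quantile normalised in lumi, whose version is not given in the sources used here.

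The intensities were background corrected from the detection p-values, quantile normalised and put on the log2 scale (neqc, offset 16) in limma 3.58.1 with R 4.3.3. Of 45281 probes, the 24445 whose detection p fell below 0.05 on 2 or more arrays were used. The annotation gave 1 symbol to 34885 probes, several to 18 and none to 10378, and the kept probe with the highest mean stood for each of 12444 genes. All 6 groups entered 1 limma fit with 8 residual degrees of freedom, and p-values were adjusted by Benjamini-Hochberg over all genes. Differences between responses were interaction contrasts. The fit was tested on simulated data. The small number of arrays limits precision.

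Genes named are those called, the 2 highest and 2 lowest differences of each comparison, isoform sets, Sdh genes, core subunits, members whose probes differ in sign, and up to 2 called genes of each other list. Ndufb9, Ndufa13, Ndufb11 and Mrpl genes beyond that were chosen after their values were seen. The genes and lists were chosen with earlier results of these data known. Alternatives covered the deposited values, background, scaling, filter, probes, samples fitted, blocking, array weights and arrays left out. Whether replicate numbers pair the arrays was not settled, and the main fit did not pair them. With group means taken off, same-numbered PeriFibro and Fibro bleomycin arrays correlated at 0.543, -0.41 and -0.297. Peri and Fibro bleomycin arrays gave 0.399 and 0.149, and Peri and PeriFibro bleomycin arrays -0.0915 and -0.201. In uninjured mice it was 0.255 for Peri and PeriFibro, 0.0422 for Peri and Fibro and 0.0902 for PeriFibro and Fibro arrays. Per the methods, samples went to 2 BeadChips of 6 and 2 samples with poor hybridisation were removed as outliers. How this relates to the 14 arrays used here was not settled, and no slide block was run because slides were not identified. Other experiments of the study were not analysed here.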

Additional observations from a re-analysis of the deposited data

Results flagged for a closer look

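In 2 of the 65 genes the bleomycin arrays of 1 population all lay on the opposite side of their uninjured arrays from those of another. Ndufaf4, an assembly factor of complex I, differed by -0.40 in Peri cells and 0.63 in PeriFibro cells, and the difference between these responses was -1.02 (adjusted p = 0.95, limma interaction). Sdhb, the iron-sulfur subunit of complex II, differed by -0.22 in Peri cells and 0.29 in PeriFibro cells, a difference of -0.52 (adjusted p = 0.98, limma interaction). These Sdhb values are those of 1 of its 3 probes: another gave -0.24 and 0.36, and the dimmest 0.03 and -0.03. Neither gene's difference passed the threshold. Over all genes, 19.2% lay lower on every bleomycin array in Peri cells and 11.6% higher in PeriFibro cells. The share of all genes with both is not given here, so the count of 2 is no result about these genes.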

How the results depend on the processing

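The 10 called values kept their sign in all 280 alternative values, of which 198 stayed called and 82 did not; the causes were not tested. Between uninjured Peri and PeriFibro cells (0 genes called) the count was 1 under median scaling, with all probes tested singly and by adjusted p alone, 3 with only those groups fitted, 2 with array weights and 4 with the 3 high arrays left out. Between uninjured Peri and Fibro cells (6) it was 3 with the deposited values, without background correction, with an offset of 50 and under median scaling, and 2 without the detection filter and with only those groups fitted. Between uninjured PeriFibro and Fibro cells (1) it was 0 with the deposited values, without background correction, under median scaling, without the filter, with only those groups and without the 3 arrays. After bleomycin, Peri against PeriFibro cells (3) gave 0 with the deposited values and 1 under median scaling and without the filter. Peri against Fibro cells (0) gave 3 with array weights, 1 by adjusted p alone and 2 without the 3 arrays, and PeriFibro against Fibro cells (0) gave 1 with array weights. Leaving out 1 array gave 0 to 1, 0 to 13 and 0 to 2 in the uninjured pairs and 0 to 5, 0 to 4 and 0 after bleomycin. With the replicate number as a block the uninjured pairs gave 1, 8 and 1 and Peri against PeriFibro cells after bleomycin 4. For the bleomycin response in Peri cells, where same-numbered arrays correlated at -0.178, crossed pairing, chosen after seeing the data, gave 0. Responses and their differences gave 0 in all settings run. Median scaling moved the median of all genes from -0.05 to -0.30 between uninjured Peri and PeriFibro cells and to 0.41 for the response in Peri cells. Between uninjured Peri and PeriFibro cells the median of the 65 genes moved from -0.16 to -0.66. Between uninjured Peri and Fibro cells it moved from -0.77 to -1.22 (all genes from -0.03 to -0.15).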
